A study of Mus musculus and Homo sapiens with 34 samples.

Results

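The genes described here are the enzymes of cholesterol synthesis, the proteins that sense sterols, and the neighbouring enzymes of fatty acid synthesis and desaturation that share their control. They were chosen by name as 33 mouse gene symbols and their human counterparts. The rule holds no measured value, but earlier results of these data were known when it was set. All 33 were found in each of the 4 mouse count tables, and all but Scd2 (32 genes) in each of the 3 human ones. All listed members passed the filter on low counts in every table. The 33 genes stood among 48431 distinct Ensembl genes over the 7 tables. They were grouped by role into 5 regulators, 8 enzymes from acetyl-CoA to farnesyl and geranylgeranyl diphosphate (the mevalonate arm), 11 enzymes from squalene to cholesterol, 2 genes of sterol transport and receptor turnover, and 7 enzymes of fatty acid synthesis and desaturation.

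The study asked how the lineage factor HNF4α and signalling through MEK and ERK set the state of lung adenocarcinoma cells, and sequenced RNA from 34 libraries in 17 groups of 2. All mouse cultures carried, among other alleles, p53frt and Rosa-FSF-CreERT2, an inducible Cre recombinase that 4-hydroxytamoxifen (4OHT) switches on. The 3154 organoids also carried Hnf4aflox. They were given 2 mM 4OHT, as the labels state the dose, or ethanol for 2 days and were harvested 2 weeks later. In a separate 48-hour experiment the 3154 organoids received ethanol or 4OHT, each with vehicle or 3 nM MRTX1133, a small-molecule inhibitor. The labels give 48 hours for all 4 groups and no order of the agents, so "48-hour deletion" here names that experiment. Foxa1flox and Foxa2flox took the place of Hnf4aflox in the 1027B organoids and the 3311 cell line, whose labels name no 4OHT. Over 48 hours, 1027B was kept in vehicle, in 10 nM trametinib (an inhibitor of MEK) or in 20 nM MRTX1133, and 3311 in vehicle or 50 nM trametinib. H358 and H1651, both established human lung adenocarcinoma lines, were kept in vehicle or 20 nM trametinib over the same time. H1651 cells with a lentiviral HNF4α construct received 1 µg/mL doxycycline for 7 days and were set against H1651 cells without doxycycline. Organoids grew in medium with 50% L-WRN conditioned medium, and 3311, H358 and H1651 cells in medium with 10% fetal bovine serum.

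Cells make cholesterol from acetyl-CoA through mevalonate and squalene, and they read their own sterol level in the membrane of the endoplasmic reticulum. SREBP-2 and SREBP-1, the products of Srebf2 and Srebf1, are held there by Scap and by the Insig proteins while sterol is plentiful, and are released to switch on the enzymes when sterol is scarce. SREBP-2 is best known for the sterol genes and SREBP-1 for fatty acid synthesis, while LXR, a receptor for oxysterols, switches on Mylip (which marks lipoprotein receptors for degradation) and sterol efflux. In the lung, alveolar type 2 cells use the same lipid enzymes to make surfactant.

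The promoters of the mouse members were read from RefSeq (build GRCm38.p6), in which 27 of the 33 members had at least 1 entry, in order to show the letters that SREBP proteins and their partner NF-Y are known to read. The 250 bases before each start were searched on both strands for TCACNCCAC (a sterol regulatory element), CCAAT (the NF-Y box) and CACGTG (an E-box), motifs that do not overlap in the sequences printed. TCACNCCAC was found at 1 of the 27 members, against 1.22% of 27025 genes with an entry. CCAAT was found at 21 of the 27 members, a share of 77.8%, against 37.5% of all genes. CACGTG was found at 5 of the 27 members, a share of 18.5%, against 6.86% of all genes. The 5 stretches of 100 bases printed here are the one with the sterol regulatory element and, chosen after the values and motif counts were seen, 4 of the members called most often that hold an NF-Y box and have a single entry. Capitals mark TCACNCCAC and CCAAT on either strand, so that CCAAT on the other strand reads ATTGG.
Hmgcs1: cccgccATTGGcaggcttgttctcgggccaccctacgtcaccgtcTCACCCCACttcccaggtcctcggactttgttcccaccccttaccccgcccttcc
Lss: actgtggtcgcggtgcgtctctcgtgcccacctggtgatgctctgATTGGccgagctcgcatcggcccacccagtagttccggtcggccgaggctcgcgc
Insig1: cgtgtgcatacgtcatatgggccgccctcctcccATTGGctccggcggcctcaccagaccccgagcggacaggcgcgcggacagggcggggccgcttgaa
Idi1: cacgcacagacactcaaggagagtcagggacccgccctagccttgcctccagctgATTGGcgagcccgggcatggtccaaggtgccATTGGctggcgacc
Srebf2: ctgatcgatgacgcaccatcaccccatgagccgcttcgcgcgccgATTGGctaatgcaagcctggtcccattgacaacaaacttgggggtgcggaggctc
All 5 lie on the plus strand: Hmgcs1 at chr13:119690169-119690268, Lss at chr10:76531498-76531597, Insig1 at chr5:28071162-28071261, Idi1 at chr13:8885506-8885605 and Srebf2 at chr15:82147089-82147188. In Hmgcs1 the sterol regulatory element began 137 bases before the start and 3 NF-Y boxes lay in the 250 bases. Starts here are those of RefSeq. In the GENCODE M21 models of the same genes, whose first start can lie further out, the whole Idi1 stretch, 10 of the 100 bases of Lss and 8 of those of Srebf2 fell inside the gene, as did some of the 250 bases of 17 of the 27 members, so part of the sequence searched may be transcribed. These matches describe the letters only, and no binding was measured.

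Total counts per library ran from 19692517 to 45284286. All 6 epithelial markers were tested in every table, with a summed level between 4073 and 11420 CPM (counts scaled to the size of the library). The sum does not show each marker. In H1651 most of it was KRT8 and KRT18, with EPCAM at 26 to 97 counts per library, and in 3311 Cldn4 had 5 to 24 counts. Immune, fibroblast and endothelial marker lists each summed to less than 50 CPM in every mouse library. In the human lines the fibroblast list was higher, between 407 and 725 CPM in H1651. In H358 the list moved with treatment, from 49.6 and 40.8 CPM in the controls to 348 and 246 CPM with trametinib. Most of it was COL1A1 and LUM, with COL1A2 and DCN at 0 in the controls. Its part in the H358 results was not tested. The share of mitochondrial counts rose with trametinib in 3311, from 1.44% and 1.45% to 3.12% and 3.35%, and its part there was not tested either. In these bulk libraries fewer cells of a type and less RNA per cell cannot be told apart. No label says that the 2 replicates of a group came from separate cultures, so the p-values measure only the spread between these samples, which may be technical.

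At the outset the members spanned a wide range of levels. In ethanol-treated 3154 organoids of the 48-hour experiment, mean CPM per kilobase of exon was highest for Scd2, a stearoyl-CoA desaturase, at 1241 ± 384 (SD, n = 2). Hmgcs1, which makes HMG-CoA, followed at 279 ± 45.7, and Cyp51, the sterol demethylase, at 207 ± 6.18 CPM per kilobase. Insig1 came next at 195 ± 37, not apart from Cyp51 beyond their spread. The lowest were Acaca at 5.1 ± 2.96 and Mylip at 0.637 ± 0.056 CPM per kilobase, so changes of Mylip rest on few reads. Exons of Fdps overlapped another gene on the same strand over 26.7% of their length and those of Tm7sf2 over 12.1%, and whether reads were counted by strand is not given in the sources used here. Fdft1 (18.3%), Scap (13.2%), Hmgcs1 (12.1%) and Idi1 (9.2%) overlapped a gene on the opposite strand, so reads of those partners could add to their counts.

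**Figure D1:**
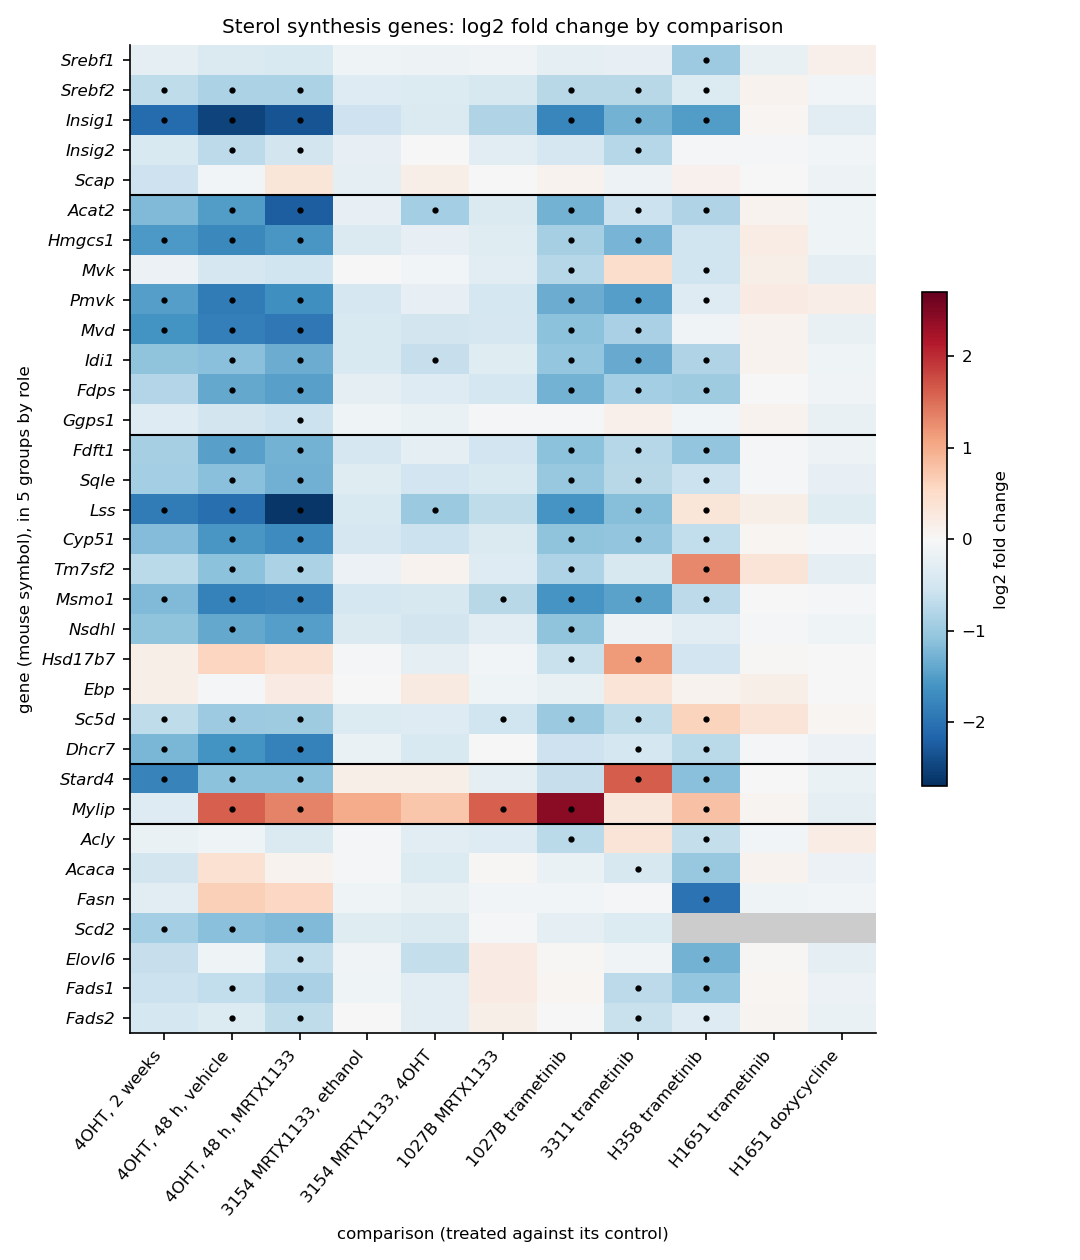
Heat map of the log2 fold change (colour) of each of the 33 genes (rows, in 5 groups by role divided by lines) in 11 comparisons of a treated group with its control (columns, n = 2 libraries per group). A dot marks a gene called at an adjusted p under 0.05 and grey marks Scd2, which the human tables do not list. Blue fills most of the sterol rows in the 3 columns of Hnf4a deletion and in trametinib in 1027B, 3311 and H358. The 2 H1651 columns, fitted without a replicate block, hold no dot.

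In the 48-hour experiment 4OHT, given to delete Hnf4a, was followed by lower levels of most of the sterol pathway. In vehicle, 22 of the 33 members fell and 1, Mylip, rose (edgeR quasi-likelihood test, Benjamini-Hochberg adjusted p under 0.05 over all 15458 genes tested, which is what "called" means throughout). Over all genes 31% were called and 15.7% were called lower. The median log2 fold change of the members was -1.11, against 0.01 for all genes tested. Hnf4a itself fell from 221 and 230 CPM to 49.4 and 50.4 CPM, with no overlap between the groups. Of 7 alveolar type 2 markers 4 rose (list median 0.62) and none fell, with a summed level of 6647 and 8972 CPM in ethanol and 8591 and 9883 CPM after 4OHT, and their part in the result was not tested.

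Among the regulators, Insig1, the sterol-sensing anchor of the SREBP complex, changed most. It stood at 684 and 522 CPM in ethanol and at 120 and 93.2 CPM after 4OHT, 5.66-fold lower (log2 fold change -2.5 ± 0.19 SE, adjusted p = 0.000225). Srebf2 stood at 1022 and 651 CPM in ethanol and at 486 and 444 CPM after 4OHT (log2 fold change -0.85 ± 0.24, adjusted p = 0.0312). In both genes the lowest ethanol library lay above the highest 4OHT library, although the 2 ethanol libraries of Srebf2 lay far apart. Insig2 fell by 0.70 on the log2 scale, from 76.9 and 71.9 CPM to 47.1 and 44.6 CPM. Srebf1 went from 280 and 254 CPM to 206 and 199 CPM, a difference that did not pass the threshold (adjusted p = 0.0564). Scap, the escort of SREBP, stood at 70.0 and 69.5 CPM against 67.6 and 64.2 CPM and was not called.

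In the mevalonate arm 6 of 8 members fell. Hmgcs1 stood at 1429 and 1132 CPM in ethanol and at 414 and 350.2 CPM after 4OHT, 3.35-fold lower (adjusted p = 0.000367). Pmvk and Mvd, which phosphorylate and decarboxylate the mevalonate chain, fell by 1.90 and 1.84 on the log2 scale, and Acat2, which condenses acetyl-CoA, fell by 1.51. Pmvk stood at 194 and 277 CPM in ethanol and at 67.0 and 59.6 CPM after 4OHT, again without overlap. Idi1 and Fdps, the isomerase and the farnesyl diphosphate synthase, fell by 1.13 and 1.39. The 2 members not called were Mvk (mevalonate kinase), with a log2 fold change of -0.45, and Ggps1, which leads away from sterol to geranylgeranyl diphosphate, with -0.51 and an adjusted p of 0.05002.

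From squalene to cholesterol 9 of 11 members fell. Lss, which closes the first sterol ring system, stood at 551 and 445 CPM in ethanol and at 144 and 99.4 CPM after 4OHT, 4.10-fold lower (adjusted p = 0.000643). Msmo1, a sterol C4-methyl oxidase, stood at 507 and 565 CPM in ethanol and at 159 and 144 CPM after 4OHT, 3.54-fold lower. Sqle, the oxygenase that commits squalene to the ring, stood at 624 and 556 CPM in ethanol and at 289 and 254 CPM after 4OHT, 2.18-fold lower. None of these groups overlapped. Dhcr7, a late reductase, fell by 1.61 on the log2 scale, Cyp51 by 1.57, Fdft1 (squalene synthase) by 1.47 and Nsdhl by 1.38. Tm7sf2 fell by 1.11 and Sc5d by 0.97. Hsd17b7 (log2 fold change 0.59) and Ebp (-0.04), an isomerase of the same stretch, were not called.

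Stard4, which carries cholesterol between membranes, fell by 1.11 on the log2 scale, from 1032 and 742 CPM to 438 and 386 CPM. Mylip went the other way, from 2.19 and 1.93 CPM to 6.03 and 6.52 CPM, 52 and 46 counts against 159 and 146 (log2 fold change 1.61, adjusted p = 0.00129). Of the 7 fatty acid enzymes the 3 desaturases fell, Scd2 by 1.14, Fads1 by 0.67 and Fads2 by 0.36. Fasn, the fatty acid synthase, stood at 958 and 638 CPM in ethanol and at 1179 and 1329 CPM after 4OHT. Both 4OHT libraries lay above both ethanol libraries, and the difference did not pass the threshold (log2 fold change 0.65 ± 0.23, adjusted p = 0.0678). Acly, Acaca and Elovl6 were not called either, with log2 fold changes of -0.12, 0.41 and -0.12.

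**Figure D2:**
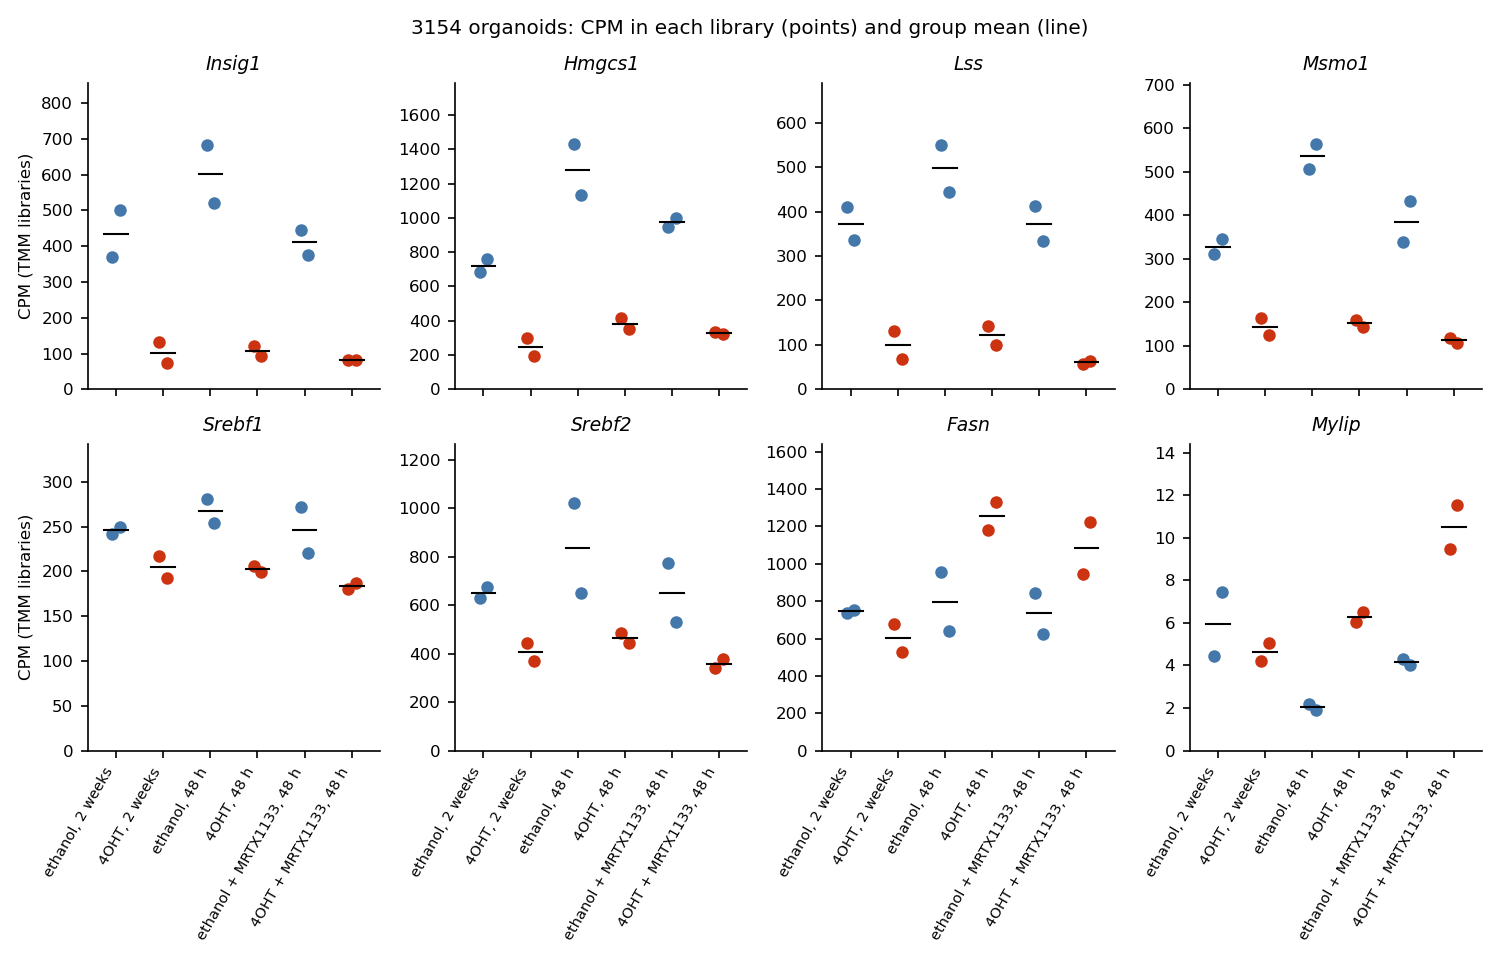
CPM scaled by TMM factors (y axis, linear from 0) of 8 genes in the 3154 organoids, 1 point per library and a line at the group mean, with ethanol in blue and 4OHT in red for the 2-week experiment and for the 48-hour experiment without and with MRTX1133. For Insig1, Hmgcs1, Lss and Msmo1 every 4OHT library lies below every ethanol library of the same experiment, Fasn after 4OHT lies above ethanol at 48 hours only, and Mylip has few counts throughout.

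At 2 weeks after 4OHT 11 of 33 members fell and none rose by edgeR without a block, where 9.81% of all genes were called and 5.78% were called lower. The count depends on the test, with 20 members lower by DESeq2, where 15.9% of all genes were called. The members' median log2 fold change was -0.73 against 0.02 for all genes. Insig1 stood at 369 and 500.4 CPM in ethanol and at 132 and 72.4 CPM after 4OHT, 4.25-fold lower (adjusted p = 0.0194). Lss stood at 409 and 335 CPM against 132 and 67.6 CPM, 3.73-fold lower, and Stard4 at 576 and 461 CPM against 184 and 114 CPM, 3.49-fold lower. In all 3 the groups did not overlap, and the 4OHT libraries differed from each other by a larger ratio than the ethanol libraries did.

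The other 8 that fell at 2 weeks were Mvd (by 1.62), Hmgcs1 (by 1.56), Pmvk (by 1.48), Dhcr7 (by 1.24), Msmo1 (by 1.19), Scd2 (by 0.93), Sc5d (by 0.69) and Srebf2 (by 0.68). Hmgcs1 stood at 681 and 761 CPM in ethanol and at 298 and 192 CPM after 4OHT. Sqle (508 and 490 CPM against 318 and 214 CPM) and Fdft1 lay just outside the threshold, with adjusted p of 0.0506 and 0.0503. Srebf1 (log2 fold change -0.26), Fasn (-0.31) and Mylip (-0.36) were not called. Hnf4a had fallen from 315 and 427 CPM to 53.5 and 68.0 CPM. The number of members called was 4 without replicate 2 of 4OHT (2.89% of all genes) and 17 without replicate 2 of ethanol (9.88%), so it depends on single libraries. Mitochondrial counts were 2.21% and 2.15% after 4OHT against 1.70% and 1.69% in ethanol, and the immune list summed to 10.1 and 13.5 CPM against 18.6 and 44.7 CPM, most of it Csf1r, with Ptprc under 0.4 CPM. The endothelial list went from 5.93 and 5.08 CPM to 2.17 and 2.55 CPM, with the 1 marker tested called lower. Their part in the 2-week result was not tested.

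The 2 deletion experiments differ in time, in schedule and in the libraries, and their responses were set against each other in a joint fit. No member's response differed at the threshold (0.0734% of all genes did), 3 members differed at an unadjusted p under 0.05, and DESeq2 called 1 (3.18% of all genes). The largest difference was that of Mylip, from -0.36 at 2 weeks to 1.61 at 48 hours, with a 95% interval of the difference from 0.99 to 2.92 and an adjusted p of 0.111.

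With MRTX1133 in both groups, 4OHT in the 48-hour experiment gave 24 members lower and 1 higher, where 27.7% of all genes were called and 14.5% were called lower. The median of the members was -0.96. Lss stood at 412 and 334 CPM in ethanol with MRTX1133 and at 57.1 and 63.8 CPM in 4OHT with MRTX1133, 6.16-fold lower (adjusted p = 0.000289). Insig1 stood at 446 and 375 CPM against 80.9 and 81.5 CPM, 5.06-fold lower, and Acat2 at 156 and 192 CPM against 39.0 and 35.9 CPM, 4.65-fold lower. Mvd fell by 1.93, Dhcr7 by 1.83, Msmo1 by 1.78, Cyp51 by 1.70 and Pmvk by 1.66 on the log2 scale. Ggps1 and Elovl6 were also called lower here, by 0.58 and 0.67, and Fasn again lay higher after 4OHT (946 and 1222 CPM against 846 and 623 CPM) without passing the threshold. Mylip rose from 4.29 and 4.02 CPM to 9.46 and 11.5 CPM. Mitochondrial counts in the libraries with both agents were 1.39% and 1.38%, against 0.93% and 1.03% with MRTX1133 alone. The alveolar type 2 list summed to 17940 and 13600 CPM with both agents against 11160 and 13970 CPM with MRTX1133 alone, with 2 of 7 markers called, both higher. The part of either was not tested.

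MRTX1133 at 3 nM moved the sterol genes little beside deletion. In organoids that kept Hnf4a, edgeR called none of the 33 members and 0.349% of all genes. At an unadjusted p under 0.05 there were 12 members, and DESeq2 called 2 (2.13% of all genes). The members' median was -0.22. Insig1 went from 684 and 522 CPM to 446 and 375 CPM, which do not overlap, but its adjusted p was 0.288. Mylip went from 2.19 and 1.93 CPM to 4.29 and 4.02 CPM, with the smallest adjusted p of the members (0.105). In organoids given 4OHT, MRTX1133 was followed by lower Lss (by 1.01 on the log2 scale, from 144 and 99.4 CPM to 57.1 and 63.8 CPM), Acat2 (by 0.93) and Idi1 (by 0.62), where 4.64% of all genes were called and 2.54% were called lower. With any 1 of the 4 libraries given 4OHT left out no member was called, without either ethanol library with MRTX1133 1 was (3.05% and 3.04% of all genes), and without either ethanol control 8 were (10.1%). A fit of the 2 groups alone called 19 members and 26.5% of all genes. Beside these values the alveolar type 2 list went with MRTX1133 from 6647 and 8972 to 11160 and 13970 CPM in ethanol, with none of 7 markers called by edgeR (2 at an unadjusted p under 0.05), and from 8591 and 9883 to 17940 and 13600 CPM after 4OHT, with 2 called higher and 1 lower. After 4OHT mitochondrial counts were 1.39% and 1.38% with MRTX1133 against 1.02% and 1.15% in vehicle, and the remaining Hnf4a stood at 25.3 and 29.8 CPM against 49.4 and 50.4 CPM. The part of these was not tested.

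The 4 groups allow a test of whether deletion and MRTX1133 act on each other. For no member, and for 0% of all genes, did the interaction pass the threshold. At an unadjusted p under 0.05 it included 3 members and 1150 genes, and DESeq2 called no member. The largest estimate was that of Acat2 at -0.71, with a 95% interval from -1.27 to -0.15. Of the 12 genes of the ERK output list (Dusp, Spry, Etv and other targets of ERK signalling) none was called by edgeR for MRTX1133 with Hnf4a kept, with 4 at an unadjusted p under 0.05 and a list median of -0.23. After 4OHT MRTX1133 was followed by lower levels of 3 of the 12 (9 at an unadjusted p under 0.05, median -0.46). The interaction was called for none of them by edgeR (4 at an unadjusted p under 0.05, median -0.44).

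In 1027B organoids, trametinib at 10 nM was followed by lower levels of 19 members and a higher level of 1, where 26.7% of all genes were called and 13.2% were called lower. The median of the members was -0.75 against -0.01 for all genes. In the same libraries 10 of 12 ERK output genes fell, with a median of -2.11. Hnf4a stood at 446 and 471 CPM in vehicle and at 254 and 200.4 CPM with trametinib, and the summed alveolar type 2 marker list at 6703 and 10710 CPM against 2489 and 2948 CPM, with 3 of 7 markers called lower and 2 higher. The part of either in the result was not tested.

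Insig1 stood at 349 and 658 CPM in vehicle and at 107 and 192 CPM with trametinib, 3.37-fold lower (log2 fold change -1.75 ± 0.41, adjusted p = 0.0215). Lss stood at 219 and 372 CPM against 76.2 and 118 CPM (log2 fold change -1.6), and Msmo1 at 461 and 467 CPM against 137 and 170 CPM (-1.6, adjusted p = 0.00083). The groups did not overlap, and the 2 vehicle libraries of Insig1 differed from each other far more than those of Msmo1. Pmvk fell by 1.33, Acat2 and Fdps each by 1.27, and Fdft1 and Mvd each by 1.11. Hmgcs1 stood at 578 and 779 CPM against 305 and 422 CPM and Sqle at 401 and 501 CPM against 185 and 261 CPM, both without overlap. By role, 7 of 8 in the mevalonate arm and 9 of 11 from squalene to cholesterol fell, with Ggps1, Ebp and Dhcr7 the ones not called.

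Srebf2 fell by 0.75, from 564 and 715 CPM to 333 and 426 CPM, and Srebf1 went from 239 and 289 CPM to 218 and 231 CPM without a call. Of the fatty acid enzymes only Acly, which makes cytosolic acetyl-CoA, was called (lower by 0.72). Fasn stood at 945 and 1325 CPM in vehicle and at 1147 and 999 CPM with trametinib, groups that overlapped, and the 95% interval of its log2 fold change ran from -0.54 to 0.37. Mylip rose from 0.775 and 1.41 CPM to 5.83 and 6.02 CPM, 16 and 26 counts against 131 and 129 (log2 fold change 2.44, adjusted p = 0.00451). The number of members called was 10 without replicate 1 of trametinib (8.83% of all genes) and 13 without replicate 2 of vehicle (13.8%).

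MRTX1133 at 20 nM in the same organoids shifted the sterol genes the same way by less. It was followed by lower Msmo1 (279 and 273 CPM, a fall by 0.75) and Sc5d (108 and 110 CPM, a fall by 0.53) and higher Mylip (2.94 and 3.74 CPM, log2 fold change 1.61), 3 members of 33, where 6.27% of all genes were called. The median of the members was -0.31, and 26 of 33 estimates were negative. The median was -0.16 without replicate 2 of vehicle and -0.42 without replicate 1 of vehicle. Without replicate 1 or 2 of vehicle, or without either replicate of MRTX1133, no member was called, and without replicate 2 of trametinib 1 was (4.15% of all genes). With MRTX1133 Hnf4a stood at 298 and 243 CPM, against 446 and 471 CPM in vehicle, and the alveolar type 2 list at 3165 and 4818 CPM, against 6703 and 10710 CPM, with 1 of 7 markers called lower and 1 higher. The part of either was not tested.

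Samples of the same replicate number deviated together in this table, in each of its 3 pairs of groups, and mitochondrial counts lay between 3.31% and 3.49% in the replicates numbered 1 and between 1.5% and 2% in those numbered 2. With the replicate number as a block, MRTX1133 gave 21 members called, 19 lower and 2 higher, where 24.1% of all genes were called. Insig1, at 217 and 354 CPM with MRTX1133, then had a log2 fold change of -0.79 ± 0.07 and an adjusted p of 0.000285, and Lss, at 144 and 224 CPM, one of -0.67 ± 0.07. Trametinib gave 25 members with the block, adding Srebf1, Insig2, Dhcr7, Stard4 and Scd2, all lower, where 44.9% of all genes were called.

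**Figure D3:**
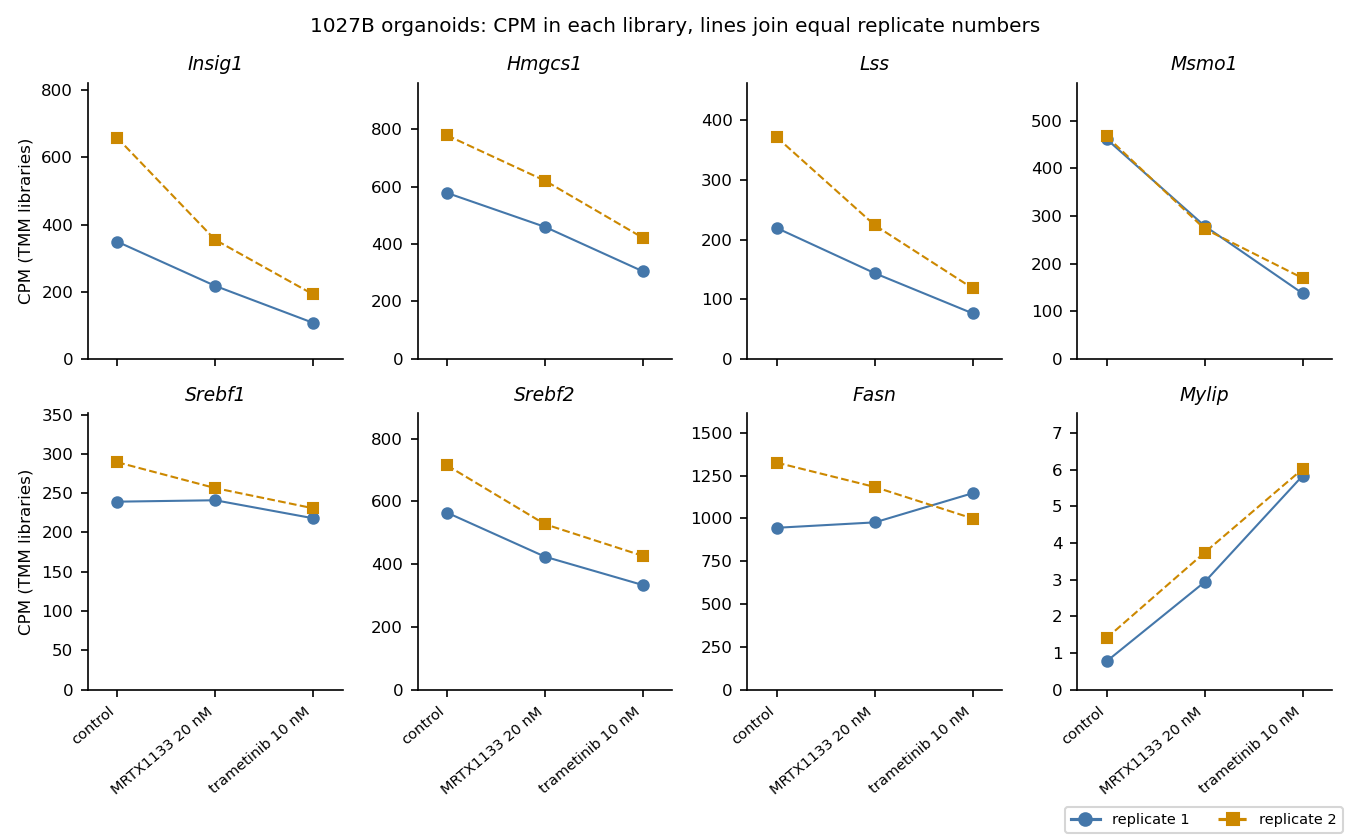
CPM scaled by TMM factors (y axis, linear from 0) of 8 genes in the 1027B organoids in vehicle control, 20 nM MRTX1133 and 10 nM trametinib, where lines join libraries with the same replicate number. Both lines of Insig1, Lss, Msmo1, Hmgcs1 and Srebf2 fall from control to MRTX1133 and again to trametinib, those of Mylip rise in the same order, and those of Fasn cross.

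Set directly against each other at these unequal doses, MRTX1133 left the members higher than trametinib in 31 of 33 estimates, with a median difference of 0.48. Without the block no member and 0% of all genes were called (18 members and 2357 genes at an unadjusted p under 0.05, and 7 members and 4.89% of all genes by DESeq2). With the block 21 members were called, all higher with MRTX1133, where 14.1% of all genes were called. Insig1 was then higher by 0.95 ± 0.07, Lss by 0.92 ± 0.07, Pmvk by 0.90 ± 0.10 and Acat2 by 0.88 ± 0.07 on the log2 scale. In the ERK output list edgeR without the block called none, with 10 of 12 genes at an unadjusted p under 0.05. The list's median difference was 1.01, also higher with MRTX1133.

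In 3311 cells, trametinib at 50 nM was followed by 19 members lower and 2 higher, where 39% of all genes were called and 19.6% were called lower. The median of the members was -0.58. The alveolar type 2 list went from 4485 and 5221 CPM to 690.4 and 727 CPM, where of 3 markers tested Sftpb was called lower and Lpcat1 higher, and the immune list from 9.55 and 15.7 CPM to 21.8 and 28.7 CPM, with Ptprc at 0. Hnf4a stood at 374 and 479 CPM in vehicle and at 263 and 390 CPM with trametinib, groups that overlapped, and was not called (adjusted p = 0.208). The part of the 2 lists was not tested. Pmvk stood at 38.1 and 29.4 CPM in vehicle and at 11.3 and 13.0 CPM with trametinib, 2.78-fold lower (adjusted p = 0.0023). Msmo1 stood at 276 and 185 CPM against 81.5 and 87.7 CPM (log2 fold change -1.45). Insig1 stood at 429 and 264 CPM against 141 and 147 CPM (-1.27), and Hmgcs1 at 578 and 391 CPM against 201 and 205 CPM (-1.26). None of these groups overlapped, and the vehicle libraries were the more spread. Idi1 fell by 1.35, Lss by 1.15 and Cyp51 by 1.06.

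Srebf2 fell by 0.75, from 917 and 814 CPM to 517 and 513 CPM, and Srebf1 was not called (log2 fold change -0.22). Among the fatty acid enzymes Fads1, Fads2 and Acaca fell by 0.70, 0.60 and 0.43, while Fasn stood at 900.2 and 771 CPM in vehicle and at 900.2 and 704 CPM with trametinib. The 2 members that rose were Stard4, from 222 and 260 CPM to 735 and 750 CPM (3.09-fold, adjusted p = 0.000834), and Hsd17b7, a reductase of the same stretch as Msmo1 and Nsdhl, from 18.9 and 25.6 CPM to 51.3 and 47.4 CPM (2.22-fold). Both rose with no overlap between the groups, although their pathway as listed here mostly fell.

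The responses of 3311 and 1027B to trametinib were compared in a joint fit, at 50 nM against 10 nM and in a serum-fed line against organoids, so culture and dose cannot be told apart. For 7 members the response differed, where 12.3% of all genes did. With the replicate number as a block in each culture 9 did, where 18.9% of all genes did, adding Acat2 (difference 0.67, adjusted p = 0.0203) and Fads2 (-0.60, adjusted p = 0.0403). Stard4 (difference 2.23 ± 0.28, adjusted p = 0.00339), Hsd17b7 (1.73 ± 0.25), Mvk (1.23 ± 0.27), Acly (1.05 ± 0.20) and Nsdhl (0.93 ± 0.22) were higher in the response of 3311. Mylip (-2.16 ± 0.32) and Fads1 (-0.78 ± 0.17) were lower in it. Mylip already stood at 47.0 and 43.5 CPM in vehicle in 3311, against about 1 CPM in 1027B, and went to 60.5 and 51.1 CPM with trametinib. The number called was 3 without replicate 1 of trametinib in 1027B (4.88% of all genes), and 4 without replicate 1 of vehicle (6.17%) or either trametinib replicate (5.12% and 6.22%) in 3311. For the bulk of the sterol genes no difference was called, with 95% intervals such as -0.47 to 0.49 for Cyp51 and -0.46 to 0.74 for Msmo1.

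Across these experiments 14 members were lower after 48-hour deletion of Hnf4a and with trametinib in both 1027B and 3311, namely Srebf2, Insig1, Acat2, Hmgcs1, Pmvk, Mvd, Idi1, Fdps, Fdft1, Sqle, Lss, Cyp51, Msmo1 and Sc5d. They make up 14 of the 22 members lower after deletion and 14 of the 19 lower in each trametinib experiment, and the 3 experiments share no library. Of all 12876 genes tested in the 3 experiments 407 were lower in each, or 3.16%, against 42.4% of the 33 members. The members were chosen with earlier results of these data known. In H358, where 23.2% of all genes were called lower, 10 of the 14 were also lower, the exceptions being Hmgcs1 and Mvd, not called, and Lss and Sc5d, which were called higher. Scap and Ebp were called in none of the 11 comparisons of a treatment with its control.

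In H358 cells, trametinib at 20 nM was followed by 20 of 32 members lower and 4 higher, where 46.8% of all genes were called and 23.2% were called lower. The median of the members was -0.56 against 0.02 for all genes. HNF4A had 0 counts in all 4 H358 libraries. The fatty acid arm led: all 6 of its listed members fell, with a median of -1.04. FASN stood at 3320 and 2840 CPM in vehicle and at 785 and 754 CPM with trametinib, 4-fold lower (log2 fold change -2 ± 0.12, adjusted p = 1.7e-05). ELOVL6, which lengthens palmitate, stood at 75.5 and 71.2 CPM against 28.0 and 32.7 CPM (log2 fold change -1.27), and ACACA, which commits acetyl-CoA to fatty acid synthesis, at 326 and 303 CPM against 148 and 160 CPM (-1.03). FADS1, 2.08-fold lower, ACLY, lower by a log2 fold change of -0.64, and FADS2, by -0.35, completed the arm. None of the groups overlapped.

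SREBF1 fell with them, from 459 and 473 CPM to 254 and 215 CPM (log2 fold change -0.99, adjusted p = 0.000298), and SREBF2 less, from 422 and 368 CPM to 331 and 280 CPM (-0.37). INSIG1 stood at 117 and 77.0 CPM in vehicle and at 34.4 and 33.4 CPM with trametinib, 2.86-fold lower. STARD4 fell by 1.12, FDFT1 by 1.07 and FDPS by 0.97. HMGCS1 stood at 206 and 130 CPM against 122 and 110 CPM, which did not pass the threshold (adjusted p = 0.0506), and SQLE at 193 and 143 CPM against 109 and 116 CPM, which did (log2 fold change -0.58). The 4 members that rose were TM7SF2, a sterol reductase, from 18.4 and 17.2 CPM to 47.0 and 40.3 CPM (2.45-fold, adjusted p = 0.000177), MYLIP by 0.78, SC5D by 0.61 and LSS by 0.33 on the log2 scale. In the ERK output list all 12 genes fell, with a median of -3.95. The epithelial list went from 5964 and 5680 CPM to 4073 and 4319 CPM (3 of 6 markers lower and 1 higher). The alveolar type 2 list went from 326 and 369 CPM to 425 and 518 CPM (all 4 markers tested higher). The endothelial list went from 12.1 and 14.4 CPM to 21.1 and 21.2 CPM (1 of 4 markers tested called higher and 0 lower). The part of these lists was not tested.

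**Figure D4:**
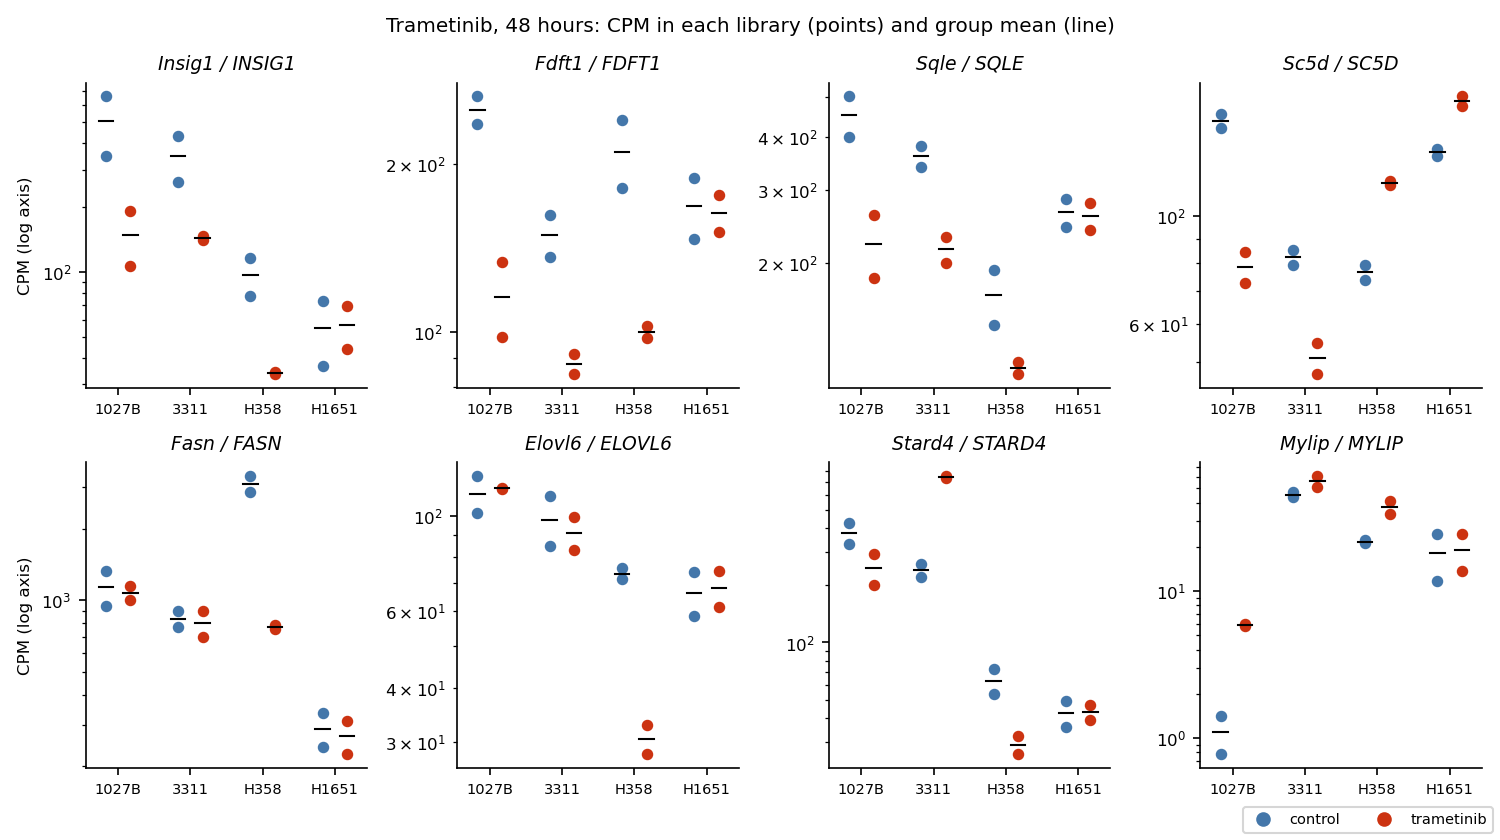
CPM scaled by TMM factors (y axis, logarithmic, a separate range for each panel) of 8 genes in 1027B, 3311, H358 and H1651, with 1 point per library and a line at the group mean, vehicle in blue and trametinib in red. Insig1, Fdft1 and Sqle lie lower with trametinib in 1027B, 3311 and H358, Fasn and Elovl6 in H358 of the 4 cultures, Stard4 lies higher in 3311, and in H1651 the 2 colours overlap for all but Sc5d.

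In H1651 cells the same dose and time of trametinib gave no called member and 0% of all genes called, without a replicate block. Only SC5D among the members and 597 genes then had an unadjusted p under 0.05, and DESeq2 called no member. With the replicate number as a block, 4 members were called higher and 1 lower, where 10.3% of all genes were called. Without the block the members' median was 0.06, and estimates ran from -0.20 to 0.35. The sign of the median depends on single libraries: it was 0.26 without replicate 1 and -0.11 without replicate 2 of vehicle, and -0.07 without replicate 1 and 0.18 without replicate 2 of trametinib. INSIG1 stood at 73.1 and 36.5 CPM in vehicle and at 69.8 and 44.0 CPM with trametinib. FASN stood at 336 and 241 CPM against 311 and 225 CPM, HMGCS1 at 682 and 539 CPM against 770 and 635 CPM, and SQLE at 285 and 244 CPM against 279 and 240 CPM. These groups overlapped, and replicate 1 was the higher of each pair. The 95% intervals leave out falls of the size seen in H358 for FASN (-0.68 to 0.47) and FDFT1 (-0.44 to 0.36), while that of SREBF1 (-1.44 to 1.04) does not. In the ERK output list edgeR without the block called none, and 11 of 12 had an unadjusted p under 0.05. DUSP6 had an estimate of -3.00 ± 0.19 with an adjusted p of 0.149, and the list's median was -1.83.

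The difference between the responses of the 2 human lines was tested in a joint fit of both tables. For 11 members it passed the threshold without a replicate block, all higher in the response of H1651. Over all genes 19.3% differed and 9.86% were higher. FASN differed by 1.87 ± 0.27 (adjusted p = 0.00276), ELOVL6 by 1.28 ± 0.21, ACACA by 1.09 ± 0.29 and FADS1 by 1.08 ± 0.24. The others were STARD4 (1.10), FDFT1 (1.01), FDPS (0.95), IDI1 (0.89), ACAT2 (0.88), CYP51A1 (0.70) and PMVK (0.56). INSIG1 differed by 1.54 ± 0.47 and lay just outside the threshold, with an adjusted p of 0.0541. Between 5 and 13 members were called when 1 library was left out, with 5 without replicate 1 of vehicle (11.6% of all genes) or of trametinib (10.7%) in H358, 6 without replicate 2 of trametinib in H358 (16.6%), and 7 without replicate 2 of vehicle (14.7%) or replicate 1 of trametinib (15.6%) in H1651. ERK output genes differed in the same direction, 7 of 12 called with a median of 2.14. With the replicate number as a block in each line, 25 members were called, 22 higher and 3 lower in the response of H1651. Over all genes 40% then differed.

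**Figure D5:**
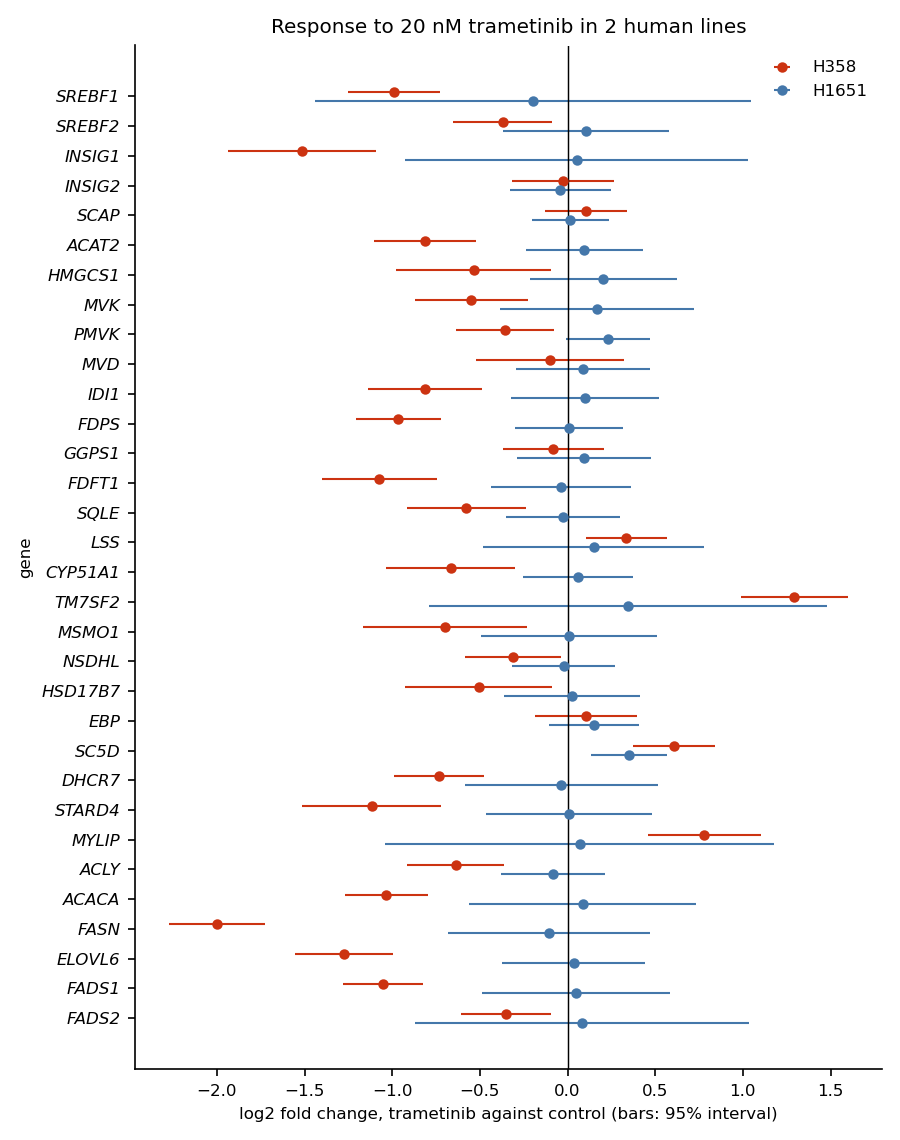
Log2 fold change with its 95% interval (x axis) of 32 genes (y axis) for 20 nM trametinib against vehicle in H358 (red) and H1651 (blue), n = 2 libraries per group. H1651 estimates lie between -0.20 and 0.35, while FASN in H358 lies at -2 and TM7SF2 at 1.29.

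Raising HNF4α in H1651 with doxycycline for 7 days was followed by no called change of a member without a replicate block. HNF4A went from 47.1 and 35.9 CPM to 94.4 and 96.8 CPM. The fibroblast list went from 643 and 725 CPM to 407 and 445 CPM, and the epithelial list from 4513 and 4506 CPM to 5837 and 6313 CPM, with 2 of its 6 markers called higher. The part of either was not tested. None of 32 members was called by edgeR without the block, where 1.42% of all genes were. Then 6 members had an unadjusted p under 0.05, and DESeq2 called none. With the replicate number as a block 18 members were called, 15 lower and 3 higher, where 17.6% of all genes were called. Without the block the members' median was -0.13, and 27 of 32 estimates were negative, between -0.33 and 0.21 over all members. The median was -0.02 without replicate 1 and -0.20 without replicate 2 of the cells without doxycycline, and -0.08 without replicate 2 of those with it. LSS had the lowest estimate, -0.33 with a 95% interval from -0.55 to -0.10, at 167 and 148 CPM without doxycycline and 134 and 117 CPM with it. INSIG1 stood at 170 and 110 CPM against 134 and 96.1 CPM, and HMGCS1 at 530 and 413 CPM against 493 and 382 CPM, groups that overlapped. ACLY had the highest estimate, 0.21, at 573 and 542 CPM against 630 and 657 CPM.

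Genes outside the 33 were followed in 3 further lists drawn up with earlier results of these data known. Their values come from edgeR fits without a replicate block. Of 12 other genes of sterol synthesis and SREBP control, 3 rose and 3 fell after 48-hour deletion in vehicle, where 31% of all genes were called and 15.7% were called lower, with a list median of -0.19. Tmem97, a membrane protein that SREBP-2 is known to induce, fell by 1.75, from 171 and 138 CPM to 46.9 and 44.7 CPM. Tmem97 also fell with trametinib in 1027B (by 1.35), in 3311 (by 1.65) and, as TMEM97, in H358 (by 1.25). Rnf139, a ubiquitin ligase of the endoplasmic reticulum, rose after deletion (0.61) and with trametinib in 1027B (0.91) and 3311 (1.12).

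Of 12 tested genes for LXR, efflux, storage and uptake, 3 rose and 3 fell after 48-hour deletion in vehicle, beside the same 31% of all genes. Abcg1, a sterol exporter and LXR target like Mylip, rose from 2.48 and 2.56 CPM to 23.6 and 32.5 CPM (log2 fold change 3.47, adjusted p = 0.000405), while Soat2, which esterifies cholesterol, fell from 10.8 and 14.6 CPM to 1.63 and 1.61 CPM (log2 fold change -2.97). Nr1h3, which encodes LXRα, rose by 1.61. With trametinib in 1027B, 3 of 13 rose and 5 fell (26.7% of all genes were called), and Abcg1 was not among them (28.3 and 37.2 CPM against 26.6 and 26.3 CPM). There Nceh1, which releases cholesterol from its esters, rose from 18.2 and 22.2 CPM to 98.1 and 97.9 CPM, and Lrp8, a lipoprotein receptor that Mylip targets, fell from 40.5 and 46.5 CPM to 9.3 and 16 CPM. In 3311, Abca1 rose by 1.48 and Nceh1 by 2.07, and Lrp8 fell by 2.45. In H358 LRP8 fell by 3.29.

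Of the other fatty acid genes, 6 of 8 fell and 1 rose after 48-hour deletion in vehicle (31% of all genes called), with a list median of -1.43. Acss2, which makes acetyl-CoA from acetate, fell from 193 and 195 CPM to 36.4 and 31.6 CPM (log2 fold change -2.51), Acacb by 2.10 and Slc25a1, the citrate carrier, by 1.69. Fasn and Acaca were not called in the same libraries. Acss2 also fell in 1027B with trametinib (by 1.68) and rose in 3311 (1.55), a difference between the cultures of 3.22 (adjusted p = 0.00416). In H358, where 46.8% of all genes were called, 4 of 9 fell and 1 rose, a share near that of all genes, among them SCD, the human stearoyl-CoA desaturase, by 1.80, and FADS3 rose by 1.72.

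At 2 weeks after deletion, where 9.81% of all genes were called, none of the 12 other sterol genes was called by edgeR (4 at an unadjusted p under 0.05, median -0.32), 3 of 12 in the LXR list fell (Soat2 by 2.34, Lipa by 1.75 and Vldlr by 1.41, median -0.18), and 4 of 8 fatty acid genes fell (Acss2, Gpam, Me1 and Slc25a1, median -0.85). Deletion with MRTX1133 (27.7% of all genes called) gave 2 higher and 5 lower, 5 higher and 5 lower, and 1 higher and 6 lower in the same order of lists, with medians of -0.36, 0.20 and -1.41. Trametinib in 1027B (26.7% of all genes called) gave 1 higher and 4 lower of the other sterol genes (median -0.13) and 2 higher and 4 lower of the fatty acid genes (median -0.73), and in 3311 (39%) 3 higher and 2 lower (0.14) and 2 higher and 5 lower (-1.30). The LXR list had a median of -0.42 in 1027B and of -0.28 in 3311, where 4 of 13 rose and 3 fell.

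In H358 (46.8% of all genes called), 4 of 12 other sterol genes rose and 6 fell (median -0.41), led by LBR, a sterol reductase of the nuclear envelope, which went from 118 and 120 CPM to 36.8 and 35.2 CPM (log2 fold change -1.72). Of 11 genes in the LXR list 2 rose and 5 fell there (median -0.31). MRTX1133 in 1027B (6.27%) gave 1 lower (Tmem97), 1 higher and 2 lower, and 1 higher and 1 lower, and in 3154 after 4OHT (4.64%) 1 lower (Tmem97 again), 2 higher and 1 lower, and none. Doxycycline in H1651 (1.42%) gave 1 call in the 3 lists, a higher LIPA (log2 fold change 0.67). Without the block, MRTX1133 in 3154 with Hnf4a kept, the interaction, MRTX1133 against trametinib and trametinib in H1651 gave no edgeR call in any of the 3 lists. At an unadjusted p under 0.05 there were 5, 4, 10 and 4 genes. Between responses, 5 of 34 genes of the 3 lists together were higher for 3311 minus 1027B (12.3%), 13 of 33 were higher and 4 lower for H1651 minus H358 (19.3%), and edgeR called none of 32 for the difference of the deletion responses (5 at an unadjusted p under 0.05).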

How the data were processed

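Raw, unnormalized counts of reads for each Ensembl gene came as 7 tables from the authors. Per the submitters' processing notes, cutadapt 3.5, STAR 2.7.6a and featureCounts 1.6.3 were used with builds mm10, mm39 and hg38. Which build goes with which table is not given in the sources used here. Genes were fitted on all listed genes of a table in R 4.3.3 with edgeR 4.0.16 (filterByExpr, TMM factors, quasi-likelihood F-test), with Benjamini-Hochberg adjustment over all genes tested and a call at an adjusted p under 0.05. CPM values use TMM-scaled library sizes. Differences between experiments came from joint fits. An allele that all mouse cultures share is not reported here. The members and lists were chosen with earlier results of these data known. The rule for named genes was to account for all 33 members, to give every library for Srebf1, Srebf2, Insig1, Hmgcs1, Sqle, Fasn and up to 8 called members with the largest change per comparison, and up to 4 called genes per further list. Intervals use the test's degrees of freedom. The columns of the 3311 table carry treatment and replicate number only and were assigned to 3311 by that table's name.

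Each result was recomputed with DESeq2 1.42.0, with RLE or upper-quartile factors, without a filter, with at least 10 counts in every library, on only the 2 groups compared, with the replicate block, and with each library left out. In 1027B, the differences between replicates 1 and 2 correlated between groups by 0.24, 0.37 and 0.41 across genes, so its numbers were taken to pair the samples, from the data and not the labels. Replicates differed by more than counting noise (chi-square per degree of freedom 5.58 to 79.9). The scripts were tested on simulated counts first.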

Additional observations from a re-analysis of the deposited data

Results flagged for a closer look

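Members differed in both tests that set the trametinib response of one culture against another. In the response to trametinib, 3311 minus 1027B, at 50 nM and 10 nM, Stard4 differed by 2.23, Hsd17b7 by 1.73, Mvk by 1.23, Acly by 1.05, Nsdhl by 0.93, Fads1 by -0.78 and Mylip by -2.16 on the log2 scale. Hsd17b7 was called higher with trametinib in 3311 and lower in 1027B, and Stard4 was called higher in 3311 with an uncalled log2 fold change of -0.62 in 1027B. In the response to 20 nM trametinib, H1651 minus H358, FASN differed by 1.87, ELOVL6 by 1.28, STARD4 by 1.10, ACACA by 1.09, FADS1 by 1.08, FDFT1 by 1.01, FDPS by 0.95, IDI1 by 0.89, ACAT2 by 0.88, CYP51A1 by 0.70 and PMVK by 0.56. Without a replicate block each of the 11 was called lower in H358 and none was called in H1651. No group has more than 2 libraries, so no sample was tested as an outlier.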

How the results depend on the processing

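Each count has 2 libraries per group behind it, and leaving out 1 leaves a lone library that is assumed to vary like the others. No called member of the comparisons reversed under any alternative run. With DESeq2 the members called were 20 (2-week deletion, 15.9% of all genes called), 2 and 8 (MRTX1133 in 3154 with Hnf4a, 2.13%, and after 4OHT, 8.68%), 7 (MRTX1133 against trametinib, 4.89%) and 1 (difference of the deletion responses, 3.18%). With at least 10 counts in every library 6 were called at 2 weeks (7.71%), with only the 2 groups compared 19 for MRTX1133 after 4OHT (26.5%), and upper-quartile factors moved the median of deletion with MRTX1133 to -0.877.

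With the replicate block 25 members were called for the 2-week deletion (31.5% of all genes, against 9.81% without it). The block gave 21 for MRTX1133 in 1027B (24.1%) and 21 for MRTX1133 against trametinib (14.1%). It gave 5 for trametinib in H1651 (4 higher, 10.3%) and 18 for HNF4A induction (15 lower, 17.6%). For H1651 minus H358 it gave 25 (22 higher and 3 lower, 40%), and for the deletion difference 1 (3.78%). Tables with 1 pair of groups correlated between replicate numbers by 0.623 (trametinib in H1651), 0.427 (3154 at 2 weeks), 0.318 (H358 and doxycycline) and 0.126 (3311). A single pair was not taken to show pairing, so there the samples share a number in the labels, and the 0 members called in both H1651 experiments depend on leaving the block out. In 3154 at 48 hours, 4OHT with MRTX1133 correlated negatively with ethanol with MRTX1133 (-0.20). Crossed pairs in a fit of these 2 groups alone gave 31 members (44.5% of all genes). The same 2 groups without a block gave 26 (30.5%), and the block in the fit of all 4 groups gave 25 (28.4%).

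Leaving out 1 library gave 4 to 17 members (2-week deletion), 0 to 8 (MRTX1133 after 4OHT), 10 to 20 (trametinib in 1027B), 0 to 2 (MRTX1133 in 1027B), 3 to 7 (3311 minus 1027B), 5 to 13 (H1651 minus H358) and 0 to 1 (deletion difference). Medians ran from -1.17 to -0.855 (48-hour deletion), -1.061 to -0.963 (with MRTX1133), -0.301 to -0.217 (MRTX1133 with Hnf4a), -0.595 to -0.518 (3311), -0.742 to -0.418 (H358), -0.415 to -0.158 (MRTX1133 in 1027B), -0.110 to 0.262 (trametinib in H1651), -0.201 to -0.017 (HNF4A induction) and -0.438 to 0.152 (deletion difference). The cause was not tested.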
